A study of Arabidopsis thaliana with 12 samples.

Results

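The question was where the combined loss of the histone variants H3.3 and H2A.Z changed seedling transcripts by more or by less than the sum of the separate losses. All 12 of 12 libraries entered, as 3 libraries of each genotype. The 4 genotypes were Col, the wild type; h3.3kd, in which H3.3 is knocked down (line h3.3kd-1); the mutant h2a.z, affected in H2A.Z; and h3.3kd;h2a.z, called the double mutant, labelled as the combination of both. All were whole Arabidopsis thaliana seedlings, 7 days old, grown at 21 °C in short days. The alleles behind h2a.z, the construct behind h3.3kd and the number of lines are not stated in the labels, so effects of a line and of a lost variant cannot be told apart. Of 23893 genes listed, the 18851 with a mean of at least 1 TPM (a length-corrected share of a library's transcripts) were tested. The interaction is the effect of H2A.Z loss in the knockdown (h3.3kd;h2a.z minus h3.3kd) minus its effect without the knockdown (h2a.z minus Col), on the log2(TPM + 1) scale. A value of 0 means that both losses add up, a positive value that the double mutant lies above that sum, and a negative value that it lies below.

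H2A.Z replaces H2A in nucleosomes and is deposited by the SWR1 complex, often next to the transcription start and over the bodies of inducible genes. H3.3 replaces H3.1 outside replication and is rich in transcribed genes. In Arabidopsis both variants have been tied to the growth response to warmth, in which the transcription factor PIF4 drives elongation, and H2A.Z to the heat-inducible and immune genes.

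Whole-seedling RNA cannot separate fewer cells of a type from less RNA per cell. Green tissue transcripts made up most of the marker RNA in every library, with 108200 to 181700 TPM summed over 20 photosynthesis genes. The summed level of 10 root markers was 156 to 178 TPM in Col, against 191 to 199 in the knockdown, 236 to 268 in the h2a.z mutant and 202 to 256 with both losses. The summed level of 13 seed storage and maturation genes was 397.7 TPM in h2a.z replicate 3 against 24.8 and 25.3 in the other h2a.z libraries, and 140.9, 404.2 and 332.2 TPM in the double mutant. It was 109.0 to 141.0 TPM in h3.3kd and 46.6 to 72.0 in Col. The library h2a.z replicate 1 was the shallowest: 1 read weighed 3.85 times as much there as in Col replicate 1, against 0.651 to 1.01 times in the other libraries. The labels do not tell whether the libraries of a genotype were grown apart, and p-values cover only the spread among them.

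Among the targeted transcripts, no H3.3 gene was called for the interaction and 1 H2A.Z gene was. HTR4, an H3.3 gene, had 386, 382 and 389 TPM in Col, 37.4, 36.9 and 34.2 in h3.3kd, 344, 346 and 362 in the h2a.z mutant and 31.1, 41.2 and 33.9 with both losses. Its interaction was 0.10 (SE 0.11), that of HTR8, another H3.3 gene, was -0.24 (SE 0.17) and that of HTR5, the H3.3 gene with the highest level left in h3.3kd, was -0.05 (SE 0.09), none of them called. HTR5 averaged 249.9 TPM in Col, 207.0 in h3.3kd, 232.4 in the h2a.z mutant and 186.3 with both losses. Loss here names the genotype and does not mean that all transcripts of a variant were gone. The H2A.Z genes HTA8 and HTA11 had interactions of 0.06 (SE 0.18) and -0.40 (SE 0.16), also not called. HTA9, the most abundant H2A.Z transcript, had 159, 154 and 171 TPM in Col, 124, 127 and 128 in h3.3kd, 37.3, 31.4 and 29.6 in the h2a.z mutant and 55.6, 68.5 and 57.3 with both losses. The double mutant kept more HTA9 transcript than h2a.z in every library, with an interaction of 1.22 (SE 0.12, limma adjusted p = 1.36e-05). The labels do not say whether h2a.z and the double mutant carry the same H2A.Z alleles and the same surrounding DNA, so a difference between these lines and an effect of the knockdown cannot be told apart here or at the other departures. The part of HTA9 in them was not tested.

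The double mutant departed from the sum at 3298 of 18851 genes, which is 17.5% of those tested (limma, Benjamini-Hochberg adjusted p below 0.05, here "called"). Of these, 1394 genes lay above the sum (7.39% of genes tested) and 1904 below it (10.1%). Departures of at least 2-fold were made by 193 genes above the sum (1.02%) and 353 below it (1.87%). The median interaction over all genes was -0.01 with an SD of 0.43 and a median SE of 0.14. At the 2-fold edge stood CYP708A2, a cytochrome P450 of triterpene synthesis, and AT4G11211, both at -1.001 and just inside, and DAR5 (-0.9975) and AT5G43440 (-0.9992), just outside.

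The effects of H2A.Z loss were spread less widely when H3.3 was knocked down. Their SD across genes was 0.52 without the knockdown and 0.42 with it. The H3.3 effect had an SD of 0.38 where H2A.Z was present and 0.51 where it was lost. Both wider SDs come from the comparisons that hold the h2a.z libraries, which include the shallowest library. The changes in spread are therefore not separate results. The effects with and without the other loss share no library and correlated across genes at r = 0.60 for H2A.Z loss and r = 0.57 for the knockdown, as a description, since genes are not replicates.

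**Figure D1:**
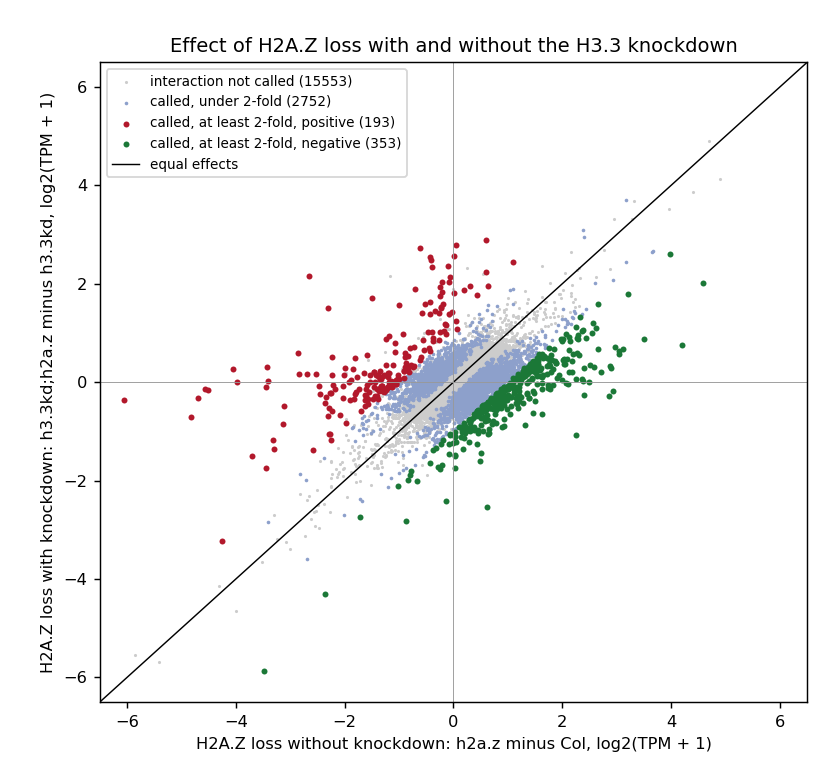
Each point is 1 of 18851 genes, with the H2A.Z effect without the knockdown on the x axis and with the knockdown on the y axis, both as differences of mean log2(TPM + 1) over 3 libraries a genotype. Genes on the diagonal add up; the 193 strong positive and 353 strong negative departures lie above and below it, most of them in a band near 0 on the y axis.

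Genes chosen by an effect in one pair of genotypes were read in the other pair, which shares no library with the effect chosen on. The calls in both pairs use the same estimate of spread, taken over all libraries. Being called in both is therefore not independent. Of 570 genes called at least 2-fold higher in h2a.z than in Col, 367 (64.4%) were also called higher in the double mutant than in h3.3kd, against 20.9% of all genes tested, and 12 were called lower. Their median log2 effect was 1.32 where they were chosen and 0.57 where they were read. Of 395 genes at least 2-fold lower in h2a.z, 273 (69.1%) were called lower again, against 13.8% of all genes, and their median went from -1.44 to -0.74. Values where genes are chosen are inflated by that choice, so the same reading was made in the other direction. Genes chosen for a rise in the double mutant over h3.3kd had medians of 1.34 there and 1.04 in h2a.z against Col, where 194 of 264 were called higher (28.9% of all genes). Those chosen for a fall had -1.33 and -1.08, and 234 of 289 were called lower (18.3% of all genes).

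Genes lowered by the knockdown in Col had the same median fall without H2A.Z. For 380 genes at least 2-fold lower in h3.3kd, the median log2 effect was -1.29 both there and in the double mutant against h2a.z, where 347 (91.3%) were called lower, against 34.3% of all genes. For 123 genes at least 2-fold higher the medians were 1.23 and 0.95, and 92 were called higher (14.2% of all genes). Chosen in the absence of H2A.Z, the knockdown effects were larger there than in Col. The 896 genes at least 2-fold lower in the double mutant than in h2a.z had medians of -1.32 there and -0.66 in h3.3kd against Col, where 637 were called lower (26.7% of all genes). The 248 genes at least 2-fold higher had medians of 1.39 and 0.35, and 111 of them (44.8%) were called higher in h3.3kd, against 9.12% of all genes, while 22 were called lower.

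The called genes were sorted by shape, with a gene said to have moved in a mutant when it was called against Col at 1.5-fold or more. The shapes are a description, since they use the same libraries as the calls. In suppression (907 genes, 27.5% of those called) a single mutant moved and the double mutant did not. In reversal (71 genes, 2.15%) the double mutant moved against the leading single effect, and in synergy (163 genes, 4.94%) it moved along that effect with an interaction of the same sign. In 404 genes (12.2%) the double mutant moved along the leading effect but by less than the sum, and in 274 emergent genes (8.31%) only the double mutant moved. The remaining 1479 genes (44.8%) did not move 1.5-fold in any mutant. Suppression was mostly of H2A.Z effects, with 782 genes led by h2a.z and 125 by h3.3kd. Among all called genes h2a.z also led more often, in 1172 genes against 373.

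**Figure D2:**
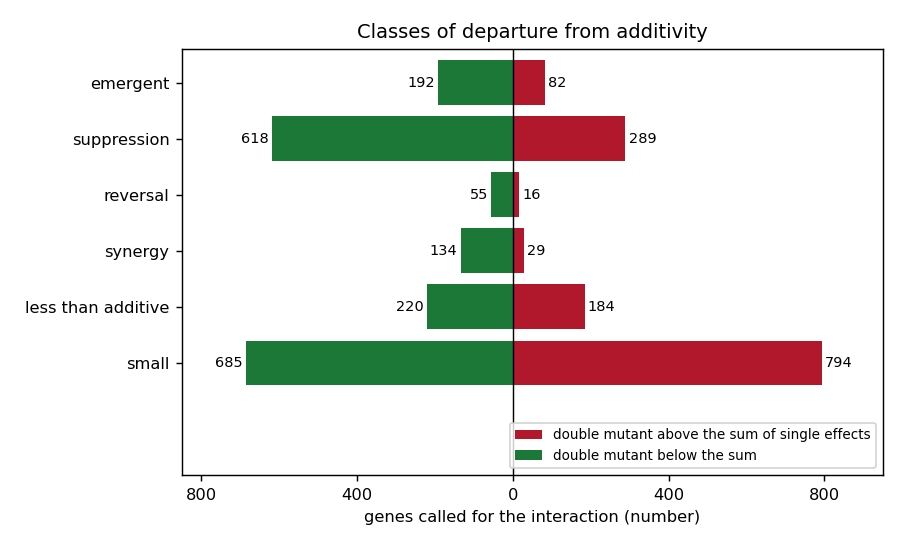
Bars count the genes called for the interaction in each shape, to the right for genes above the sum of the single effects and to the left for genes below it. Suppression below the sum (618 genes) was the fullest shape with a moved gene, and reversal (16 and 55 genes) the rarest.

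Among all 353 strong departures below the sum, 185 were at least 2-fold above Col in h2a.z, and 114 of these had not moved in the double mutant. Suppression of H2A.Z rises took 547 genes of any size of departure. The median log2 change of these 547 against Col was 0.86 in h2a.z, -0.01 in h3.3kd and 0.08 with both losses. MES18, of the methyl esterase family that frees hormones from their methyl esters, had 2.09, 3.65 and 2.42 TPM in Col, 0.434, 0.426 and 0.650 in h3.3kd, 69.3, 67.5 and 61.8 in the h2a.z mutant and 1.94, 1.01 and 1.74 with both losses. Only the h2a.z libraries were high, the double mutant lay below the lowest Col library, and the interaction was -3.44 (SE 0.23, limma adjusted p = 2.41e-07). OCT6, a transporter of the organic cation and carnitine family, had 2.56 to 2.85 TPM in Col, 3.03 to 3.25 in h3.3kd, 17.5, 29.4 and 33.4 in the h2a.z mutant and 1.66, 2.60 and 3.27 with both losses. Its interaction was -3.13 (SE 0.28, limma adjusted p = 4.21e-06). AT1G19565, an uncharacterised gene, was at most 0.853 TPM in every library outside h2a.z, where it had 8.76, 10.3 and 9.75 TPM. Its identifier lies between those of AT1G19540 and DHAR1 (AT1G19570), which were lower in h2a.z and departed above the sum. A difference in DNA between the lines at this stretch was not tested.

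PIF4, the transcription factor of thermal elongation, was among the suppressed rises. It had 15.6, 13.7 and 14.5 TPM in Col, 16.9, 14.3 and 15.2 in h3.3kd, 26.8, 23.7 and 25.2 in the h2a.z mutant and 15.66, 15.2 and 14.3 with both losses. The h2a.z libraries lay above all others, and the other 3 genotypes overlapped. H2A.Z loss raised PIF4 by 0.75 (SE 0.08) in Col and changed it by -0.03 (SE 0.08) in the knockdown, an interaction of -0.78 (SE 0.12, limma adjusted p = 4.01e-04).

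PIF4 and a pair of other genes are shown with the 250 bases before their start in RefSeq TAIR10.1, because they carry 3 shapes of departure (suppression, reversal and synergy) and 1 searched motif each. Capitals mark the match: the W-box core TTGAC in PIF4 (chr2:17885851-17886100, plus strand, first base of the match 33 bases before the start), the heat shock element form TTCNNGAA in QQS (chr3:12348797-12349046, plus strand, 223 bases before) and the G-box CACGTG in CYP83A1 (chr4:7992430-7992679, minus strand, 43 bases before).
PIF4: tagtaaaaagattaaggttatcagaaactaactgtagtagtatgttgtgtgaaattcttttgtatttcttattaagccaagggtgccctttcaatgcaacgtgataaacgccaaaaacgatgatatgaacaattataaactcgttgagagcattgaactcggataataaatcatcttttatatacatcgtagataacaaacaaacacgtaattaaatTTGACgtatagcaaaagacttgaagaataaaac
QQS: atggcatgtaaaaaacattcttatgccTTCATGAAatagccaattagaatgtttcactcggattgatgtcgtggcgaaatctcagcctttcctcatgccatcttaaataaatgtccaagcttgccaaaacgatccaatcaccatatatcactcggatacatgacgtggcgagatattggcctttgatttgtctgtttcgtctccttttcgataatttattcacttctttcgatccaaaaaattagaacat
CYP83A1: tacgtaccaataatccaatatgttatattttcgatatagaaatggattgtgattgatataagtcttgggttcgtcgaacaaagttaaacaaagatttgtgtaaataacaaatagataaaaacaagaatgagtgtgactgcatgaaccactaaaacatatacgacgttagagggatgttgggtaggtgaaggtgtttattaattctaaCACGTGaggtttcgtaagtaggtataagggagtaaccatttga
Over both strands, TTGAC was in 44.8% of the promoters of 18760 tested nuclear genes, 41.0% of those of strong positive departures and 46.7% of strong negative ones. CACGTG was in 7.63%, 8.97% and 7.93%, and the heat shock element (GAANNTTC or TTCNNGAA, which can overlap) in 15.5%, 16.7% and 15.6%. The evening element AAAATATCT was in 2.45%, 5.13% (8 promoters) and 2.55%. A match is a run of letters, not a shown binding site, and in most motifs the shares of departures were close to that of all genes.

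In the list of 17 tested genes of thermomorphogenesis and shade, 6 were called below the sum by limma and none above (1 above at an unadjusted p under 0.05). They were PIF4, XTR7 (a cell wall xyloglucan enzyme, -0.91), LNG1 and LNG2 (promoters of longitudinal cell growth, -0.53 and -0.90), PIL1 (a shade-induced relative of the PIFs, -0.70) and TAA1 (auxin synthesis from tryptophan, -0.31). Those 6 were 35.3% of the list, against 10.1% of all genes called below the sum and 7.39% above. Without h3.3kd replicate 2 only 3 of the list were called. YUC8 and IAA19, downstream genes of PIF4 in warmth, had interactions of -0.16 (SE 0.16) and 0.01 (SE 0.39) and were not called.

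Heat shock genes that were high in h2a.z differed in how far the double mutant kept that level. The summed TPM of 13 small heat shock proteins, chaperones that hold unfolding proteins, was 49.0 to 58.5 in Col, against 26.6 to 49.9 in the knockdown, 208 to 220 in the h2a.z mutant and 76.3 to 89.0 with both losses. HSP17.6II had 6.54, 4.62 and 3.21 TPM in Col, 3.61, 3.43 and 3.301 in h3.3kd, 35.2, 33.7 and 27.4 in the h2a.z mutant and 7.70, 9.61 and 6.59 with both losses. The double mutant lay above Col but far below h2a.z in every library, with an interaction of -1.55 (SE 0.25, limma adjusted p = 7.09e-04). HSP17.6B (-1.14) and HSP17.6C (-1.79) were also called, 3 of 10 tested (30.0%, against 10.1% of all genes below the sum). The median of the list was -0.67.

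HSP70, a stress-induced cytosolic chaperone, was not called. It had 190, 163 and 167 TPM in Col, 50.5, 45.3 and 32.5 in h3.3kd, 514, 587 and 588 in the h2a.z mutant and 117, 168 and 116 with both losses. The double mutant was below Col on average, and near the level of 141 TPM expected from the sum. The knockdown changed HSP70 by -2.01 in Col and -2.09 in h2a.z on the log2 scale, and the interaction was -0.07 (SE 0.21). Its relatives HSP70-2 and HSP70B were called at -0.83 and -1.13. In the 17 chaperones of the HSP70, HSP90 and HSP101 kinds, 4 were called below the sum, with the endoplasmic reticulum chaperones BIP1 (-0.64) and BIP2 (-0.62) as the others, and 1 above.

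That 1 was HSP90.2, a cytosolic HSP90 with 646, 595 and 615 TPM in Col, 432, 451 and 442 in h3.3kd, 213, 203 and 202 in the h2a.z mutant and 665, 631 and 647 with both losses. The h2a.z libraries were lowest, the knockdown libraries lay between them and Col, and the double mutant overlapped Col. The interaction was 2.13 (SE 0.07, limma adjusted p = 2.81e-11). Its near-identical copy HSP90.3, which can share reads with it, had 841, 849 and 813 TPM in h2a.z against 631 to 713 in Col, so the split between both is uncertain.

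Suppression of H2A.Z falls took 235 genes, with median log2 changes of -0.84 in h2a.z, -0.09 in h3.3kd and -0.13 with both losses. Some genes above the sum were close to silent in h2a.z. Of 156 strong positive nuclear genes of all shapes, 35 stood below 10% of Col in h2a.z, 12 of them listed at 0 in every h2a.z library, and 25 of the 35 were at 50% of Col or more in the double mutant. AT4G19500, annotated as a nucleotide-binding receptor, had 25.1, 22.0 and 20.9 TPM in Col, 19.0, 21.0 and 21.2 in h3.3kd, was listed at 0 in all 3 h2a.z libraries and had 20.6, 18.0 and 16.7 in the double mutant. AT5G51620, of the UPF0172 family, was likewise listed at 0 in h2a.z and had 18.1, 18.7 and 16.7 TPM in the double mutant against 12.9 to 17.5 in Col. RPP5, an immune receptor known for resistance to downy mildew, had 31.4, 29.5 and 29.5 TPM in Col, 28.03, 27.2 and 27.6 in h3.3kd, 0.352, 0.370 and 0.359 in the h2a.z mutant and 25.3, 25.4 and 22.8 with both losses. The double mutant was near the knockdown in each of these, and the interactions were 4.42 (SE 0.14), 4.32 (SE 0.16) and 4.35 (SE 0.10).

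Positive departures stood next to each other on the chromosomes. Of the 156 strong positive nuclear genes, 28 (17.9%) had a tested neighbour of the same kind, against 1.59% of the 18761 tested nuclear genes having such a neighbour. For strong negative genes the shares were 6.23% (22 of 353) and 3.70%. Runs of 3 or more strong genes with at most 3 tested genes between them, a rule chosen after the values were seen, held 24 positive genes in 5 runs and 3 negative genes in 1. The longest run, on chromosome 4, held 9 of 13 tested genes, among them RPP4, RPP5, SNC1 and VRN2, the last a Polycomb subunit that keeps the flowering repressor FLC silent after cold. At these runs, and at the genes listed at 0 in h2a.z alone, a difference in DNA between the h2a.z and double mutant lines was not tested and cannot be told apart from the interaction.

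**Figure D3:**
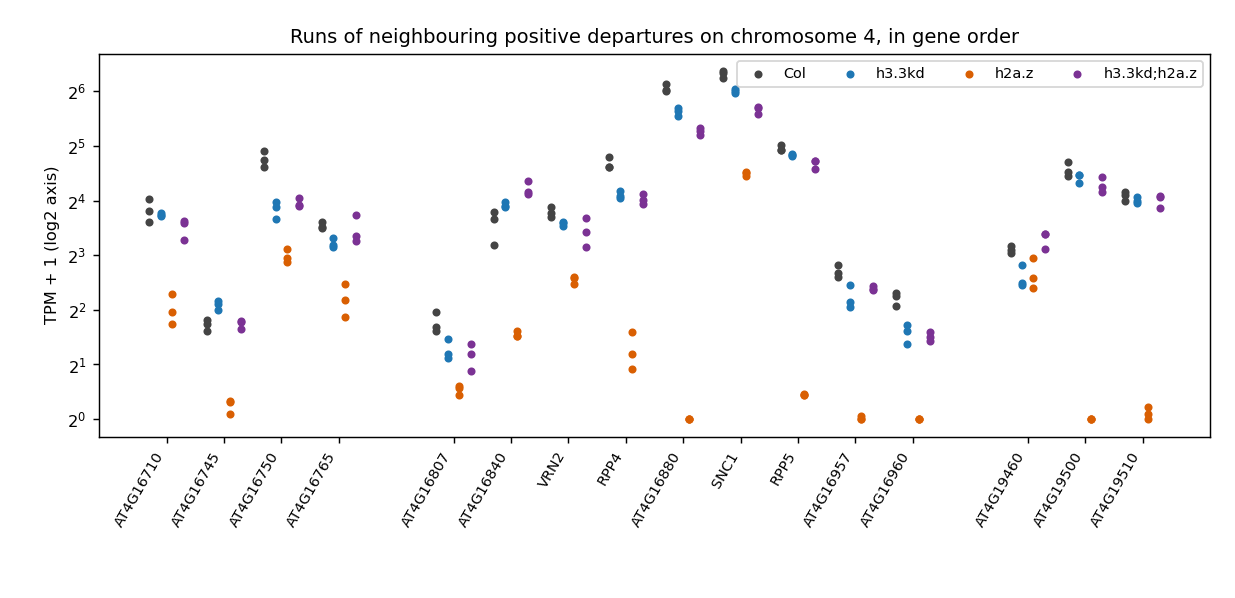
Points are TPM + 1 per library on a log2 axis for the genes of 3 runs of positive departures on chromosome 4, in gene order and grouped by run. The h2a.z libraries lie below all others at the 9 genes of the RPP4 and RPP5 run, and AT4G16880, AT4G16960 and AT4G19500 are at 0 TPM in all 3 of them.

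AT4G16880, a leucine-rich repeat gene of that run, had the largest interaction of the named genes. It had 69.3, 64.0 and 63.2 TPM in Col, 49.1, 51.0 and 45.7 in h3.3kd, 0 in all 3 h2a.z libraries and 39.2, 35.8 and 37.7 in the double mutant. The interaction was 5.69 (SE 0.10, limma adjusted p = 2.88e-14). RPP4 had 26.8, 23.48 and 23.57 TPM in Col, 2.02, 1.29 and 0.890 in the h2a.z mutant and 15.1, 16.3 and 14.3 with both losses, and SNC1, whose gain of function gives constant immunity, had 74.7 to 81.4, 20.8 to 22.0 and 46.9 to 51.1. AT4G16857, another gene of the class in the same stretch, went the opposite way, with 5.48, 7.02 and 4.12 TPM in Col, 1.78, 2.45 and 3.48 in h3.3kd, 29.4, 32.7 and 26.9 in the h2a.z mutant and 0.400, 0.645 and 1.01 with both losses. These near-identical receptors can share reads, so their separate values are uncertain. Over the family, 11 of 58 tested TIR-NBS-LRR genes (19.0%) were called above the sum and 3 (5.17%) below it, against 7.39% and 10.1% of all genes. The family median was -0.0038, and 7 of its genes were above the sum without h3.3kd replicate 1 or 3.

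Reversals were few, with 64 of 71 led by h2a.z and 7 by h3.3kd, beside 1172 and 373 of all called genes. QQS, a gene restricted to Arabidopsis that shifts carbon between starch and protein, had 7.17, 4.40 and 4.63 TPM in Col, 2.14, 2.71 and 2.55 in h3.3kd, 0 in all 3 h2a.z libraries and 13.4, 15.4 and 14.6 in the double mutant. It was lower in both single mutants than in Col and higher in the double mutant than in any library of the others, with an interaction of 4.81 (SE 0.21, limma adjusted p = 1.15e-09). AT1G12010, of an oxygenase family that uses oxoglutarate and iron, had the same order, with 5.63 ± 0.762 TPM (SD, n = 3) in Col, against 2.45 ± 0.229 in the knockdown, 1.36 ± 0.461 in the h2a.z mutant and 10.4 ± 1.68 with both losses. AT4G38280, annotated as a hemolysin-III-like membrane protein, had 7.998 ± 1.42, 7.99 ± 1.14, 0.237 ± 0.00803 and 12.6 ± 2.199 TPM in the same order of genotypes.

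Reversals below the sum were 55 genes, and 50 of the 71 reversals were rises in h2a.z. The median log2 change of these 50 against Col was 0.90 in h2a.z, -0.60 in h3.3kd and -0.77 with both losses. The double mutant median was thus near that of the knockdown alone. OSM34, an osmotin-like defence protein induced by salt, had 38.9, 37.7 and 44.2 TPM in Col, 15.6, 13.6 and 17.37 in h3.3kd, 114, 129 and 137 in the h2a.z mutant and 8.27, 8.74 and 11.6 with both losses. The 4 genotypes did not overlap. H2A.Z loss raised OSM34 by 1.63 in Col and changed it by -0.66 in the knockdown (interaction -2.29, SE 0.16, limma adjusted p = 5.64e-07). AT5G01320, annotated as a pyruvate decarboxylase, was at 6.94 to 8.16 TPM in h2a.z and 0.573 to 0.828 in Col. It had at most 0.064 TPM in h3.3kd and 0.0304 to 0.175 with both losses. H2A.Z loss changed it by 0.06 (SE 0.13) in the knockdown, which was not called.

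Synergy was mostly below the sum, with 134 of its 163 genes. Of those, 109 were led by a fall in h3.3kd, with median log2 changes of -0.90 in h3.3kd, 0.40 in the h2a.z mutant and -1.41 with both losses. In 107 of the 134 the single effects had opposite signs, and 74 were beyond both single mutants and called against the nearer one. ESM1, which steers glucosinolate breakdown toward isothiocyanates, had 142, 142 and 141 TPM in Col, 65.0, 74.0 and 83.4 in h3.3kd, 14.1, 11.7 and 9.99 in the h2a.z mutant and 0.312, 0.180 and 0.327 with both losses. The interaction was -2.40 (SE 0.15, limma adjusted p = 1.68e-07), and on unlogged TPM, where a fall cannot pass 0, it was 55.9. CYP83A1, which oxidises aldoximes on the way to aliphatic glucosinolates, had 57.6, 58.1 and 65.3 TPM in Col, 42.2, 36.7 and 39.7 in h3.3kd, 11.5, 12.7 and 9.09 in the h2a.z mutant and 1.23, 0.809 and 1.15 with both losses. Its interaction was -1.95 (SE 0.16), and 10.8 on unlogged TPM. The sign of both departures thus belongs to the log scale. AT1G13650, an uncharacterised gene, had 28.7 ± 4.63 TPM (SD, n = 3) in Col, against 10.6 ± 0.634 in the knockdown, 40.5 ± 4.18 in the h2a.z mutant and 2.84 ± 0.701 with both losses.

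**Figure D4:**
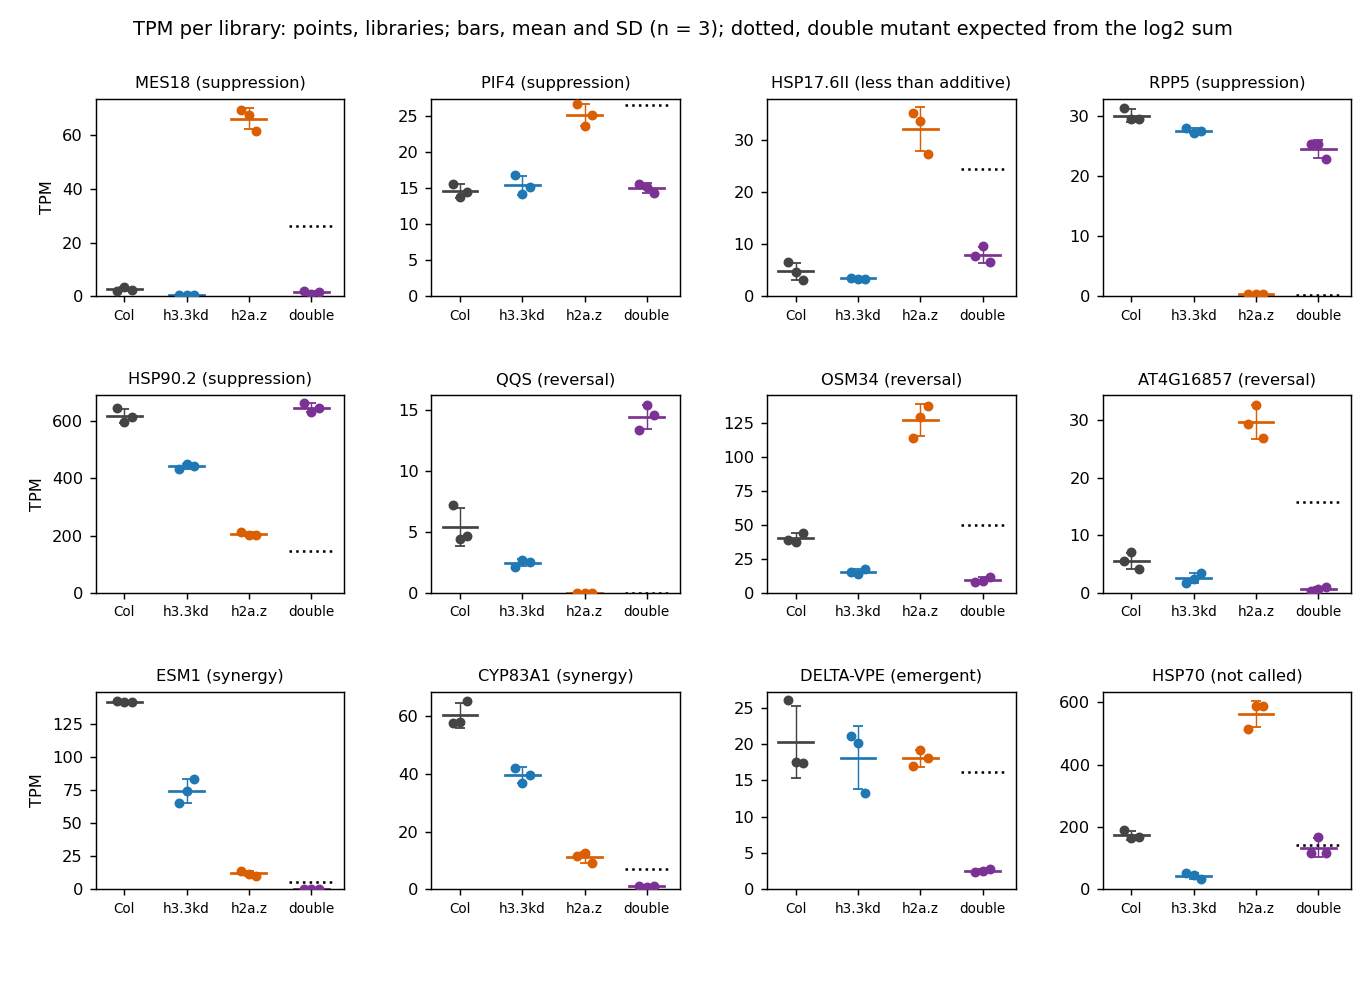
Points are TPM in the 3 libraries of each genotype for 12 genes, with the mean and SD as a bar and the level of the double mutant expected from the log2 sum as a dotted line, drawn at 0 where it falls below 0. The double mutant lies under the line for MES18, PIF4 and OSM34, above it for RPP5, QQS and HSP90.2, and at it for HSP70.

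Synergy above the sum was rarer, with 29 genes, of which 16 were beyond both single mutants and called against the nearer one. AT1G21520, an uncharacterised gene, had 0.437, 1.52 and 0.602 TPM in Col, against 2.16, 1.62 and 2.56 in the knockdown, 1.263, 0.985 and 1.44 in the h2a.z mutant and 8.02, 15.1 and 10.7 with both losses. The double mutant was above all other libraries, with an interaction of 1.64 (SE 0.32, limma adjusted p = 0.0027). AT5G46640, annotated as an AT-hook DNA-binding protein, had 7.82 ± 0.628 TPM (SD, n = 3) in Col, 3.71 ± 0.516 in the knockdown, 17.2 ± 0.640 in h2a.z and 16.3 ± 0.537 with both losses. Its double mutant level was not above h2a.z, and beside the departure of 0.83 (SE 0.13) the knockdown effect was -0.91 (SE 0.09) with H2A.Z present and -0.08 (SE 0.09) without it. AT3G62930, a thioredoxin-like gene, was high in both genotypes with the knockdown, at 21.0 ± 3.05 and 19.1 ± 4.48 TPM, against 7.49 ± 0.429 in Col and 2.92 ± 0.899 in h2a.z.

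In 404 genes the double mutant moved along the leading loss but short of the sum. Of these, 290 were led by h2a.z and 114 by h3.3kd, beside 1172 and 373 of all called genes. AT1G13609, a defensin-like gene, had 84.7, 93.5 and 110 TPM in Col, against 8.53, 10.3 and 17.78 in the knockdown, 2.06, 3.70 and 2.53 in the h2a.z mutant and 7.62, 12.1 and 8.10 with both losses. Each loss alone lowered it, and the double mutant overlapped the knockdown (interaction 4.38, SE 0.32, limma adjusted p = 5.64e-07). The log2 sum put the double mutant at -0.49 TPM, which no library can reach, so the positive sign was fixed in advance. AT3G28270, a gene of the DUF677 family, had 52.2 ± 1.93 TPM in Col, 37.2 ± 3.43 in the knockdown, 0.894 ± 0.294 in h2a.z and 22.7 ± 3.65 with both losses. In the rising direction, AT5G46940, annotated as an inhibitor of invertase or pectin methylesterase, had 0.859 ± 0.336, 4.01 ± 0.265, 19.8 ± 0.844 and 8.25 ± 1.56 TPM in that order of genotypes. AT3G28320, an uncharacterised gene, was listed at 0 in all Col and knockdown libraries and had 24.5, 19.5 and 25.7 TPM in h2a.z but 4.09, 1.78 and 3.67 in the double mutant.

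Glucosinolates are sulfur-rich defence compounds of the cabbage family. Of 19 tested genes of the aliphatic branch, 14 were called below the sum (73.7%, against 10.1% of all genes) and 1 above (5.26%, against 7.39%). The median was -0.73 against -0.01 over all genes. MYB29, a regulator of the branch, had 18.0, 15.3 and 15.0 TPM in Col, 4.07, 2.83 and 2.83 in h3.3kd, 21.8, 20.6 and 17.3 in the h2a.z mutant and 1.02, 0.4995 and 0.993 with both losses. The double mutant was lowest in every library (interaction -1.49, SE 0.20, limma adjusted p = 2.34e-04), and the paralogue MYB28 followed at -0.73. Some enzymes were instead high in the knockdown. SOT17, a sulfotransferase of the last core step, had 18.4, 22.2 and 22.4 TPM in Col, 45.0, 40.5 and 41.4 in h3.3kd, 18.6, 21.4 and 22.6 in the h2a.z mutant and 20.2, 16.1 and 16.0 with both losses. The h3.3kd libraries lay above all others, with an interaction of -1.23 (SE 0.15). IPMI2 and IMD1, of methionine chain elongation, had -1.10 and -1.03. In the indolic and shared list 7 of 11 were called below the sum and 1 above, led by MYB51, an activator of the branch (-1.28), and CYP83B1 (-0.85).

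The jasmonate and abscisic acid lists also had more genes below the sum than above it, as did all genes tested (10.1% and 7.39%). LOX2, which starts jasmonate synthesis in the plastid, had 26.7, 23.3 and 18.0 TPM in Col, 44.3, 37.5 and 32.2 in h3.3kd, 59.0, 62.8 and 59.0 in the h2a.z mutant and 34.7, 24.9 and 30.5 with both losses. Either loss alone raised it, and the double mutant overlapped both Col and the knockdown (interaction -1.72, SE 0.20, limma adjusted p = 4.80e-05). In the jasmonate list 5 of 19 were called below the sum and 2 above; without h3.3kd replicate 2 only 2 were below. In the list of abscisic acid, cold and drought genes 7 of 22 (31.8%) were below by limma and none above, at an unadjusted p under 0.05 as well. RD20, a calcium-binding protein induced by drought, had 15.8, 16.0 and 21.9 TPM in Col, 11.7, 8.09 and 9.52 in h3.3kd, 92.9, 69.7 and 79.99 in the h2a.z mutant and 15.9, 18.8 and 13.1 with both losses. RD29B, an abscisic acid marker, departed only in the double mutant, with 17.9, 19.9 and 18.22 TPM there and 37.6 to 60.9 in the other libraries.

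Genes annotated as peroxidases, which cross-link cell walls and include the fatty acid dioxygenase DOX1, had 21 of 47 called below the sum and 1 above. These were 44.7% and 2.13%, against 10.1% and 7.39% of all genes, and the median was -0.44. AT5G64110 had 34.0, 36.3 and 34.0 TPM in Col, 5.78, 7.08 and 5.32 in h3.3kd, 67.2, 77.4 and 92.5 in the h2a.z mutant and 5.61, 3.91 and 3.46 with both losses (interaction -1.57, SE 0.20). DOX1 had 125 to 146 TPM in Col, against 166 to 197 in the knockdown, 130 to 148 in the h2a.z mutant and 58.2 to 72.7 with both losses. Many of these genes are root-expressed, and 5 of 9 tested root markers were called below the sum too, among them RHD2, the oxidase of root hair growth (-0.99), and CASP1 of the Casparian strip (-0.81). Only 1 root marker was called without Col replicate 1. The part of root tissue in the peroxidase result was not tested.

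Iron genes departed in both directions. IMA3, a short peptide that signals iron need, had 6.79, 7.11 and 7.74 TPM in Col, 0.795, 0.669 and 1.27 in h3.3kd, 1.32, 1.48 and 1.23 in the h2a.z mutant and 1.90, 1.296 and 1.80 with both losses. Each loss alone lowered it, and no double mutant library was below the lowest h2a.z library (interaction 2.29, SE 0.20, limma adjusted p = 3.73e-06). For IMA3 the log2 sum lay below any level a library can have, so its positive sign was fixed in advance. IMA2 (1.14), IMA1 (0.90) and the regulator PYE (0.92) also lay above the sum. The uptake genes went below it, with IRT1, the iron transporter of the root surface, at -1.36 and FRO2, the ferric reductase, at -1.06. IRT1 had 30.0 to 34.5 TPM in the h2a.z mutant and 7.22 to 14.9 with both losses, against 12.4 to 23.61 in Col. In all, 6 of 16 tested iron genes (37.5%) were above the sum and 2 (12.5%) below it, beside the root marker levels given above. The shares of all genes tested were 7.39% and 10.1%.

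Emergent genes moved only in the double mutant. DELTA-VPE, a vacuolar protease known from the seed coat, had 26.1, 17.5 and 17.5 TPM in Col, 21.1, 20.2 and 13.2 in h3.3kd, 16.9, 19.2 and 18.0 in the h2a.z mutant and 2.33, 2.49 and 2.76 with both losses. All double mutant libraries were below all others, with an interaction of -2.28 (SE 0.23, limma adjusted p = 1.38e-05). AT3G16670, annotated to the pollen allergen and extensin family, had 18.6, 5.54 and 12.8 TPM with both losses and 54.0 to 139 elsewhere. GRX480, a glutaredoxin that joins salicylic acid and jasmonate signalling, had 0.365, 1.55 and 2.33 TPM with both losses and 2.79 to 7.07 elsewhere.

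Of 82 emergent genes above the sum, 24 were plastid-encoded, and these were 24 of the 30 that departed by at least 2-fold. Of 73 tested plastid genes, 39 (53.4%, against 7.39% of all genes) were called above the sum by limma. None were called below it, also none at an unadjusted p under 0.05. The median was 1.3, and 36 were at least 2-fold above the sum, as were 1.02% of all genes. The 39 genes summed to 844 to 952 TPM in Col, 573 to 663 in h3.3kd and 676 to 716 in h2a.z, and to 915, 2450 and 1228 in the double mutant. The first double mutant library was thus within the range of Col, and the second was highest. ATCG01080, which the tables used here do not name, had 17.56, 62.3 and 34.5 TPM with both losses and 2.16 to 7.97 in the other libraries. Only 3 plastid genes were called on unlogged TPM, 25 without h3.3kd replicate 2 and 62 with libraries weighted by their noise. All 68 mitochondrial identifiers together also had their highest level in the same library, with 120, 223 and 140 TPM with both losses and 80.6 to 122 elsewhere. What set these libraries apart was not tested.

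The linker histones H1.1, H1.2 and HIS1-3, which were high wherever H3.3 was knocked down, had interactions of 0.38, 0.27 and 0.51 and were called, but only 1 of the 3 was called on unlogged TPM, without a mean-variance trend, or without any 1 of Col replicate 2, h3.3kd replicate 2 or 3, h2a.z replicate 2 or double mutant replicate 2. HIS1-3 had 19.3 ± 1.98 TPM (SD, n = 3) in Col, against 189.4 ± 25.9 in the knockdown, 17.9 ± 1.998 in the h2a.z mutant and 249.2 ± 34.3 with both losses. The remodeller gene INO80 (0.72) and the SWR1 subunits SEF (0.76) and SWC4 (0.39) lay above the sum. FLC, the flowering repressor, had 4.98 to 5.62 TPM in Col, against 1.3 to 2.01 in the knockdown, 2.84 to 3.65 in the h2a.z mutant and 0.446 to 0.607 with both losses, with an interaction of -0.22 (SE 0.19) that was not called. In the lists of 7 flowering genes, 18 cytosolic ribosomal protein genes and 13 subunits of the CCT chaperonin no gene was called by limma. At an unadjusted p under 0.05 there were 1, 2 and 3. Of all 18851 genes tested, 3298 (17.5%) were called and 5998 had an unadjusted p under 0.05.

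**Figure D5:**
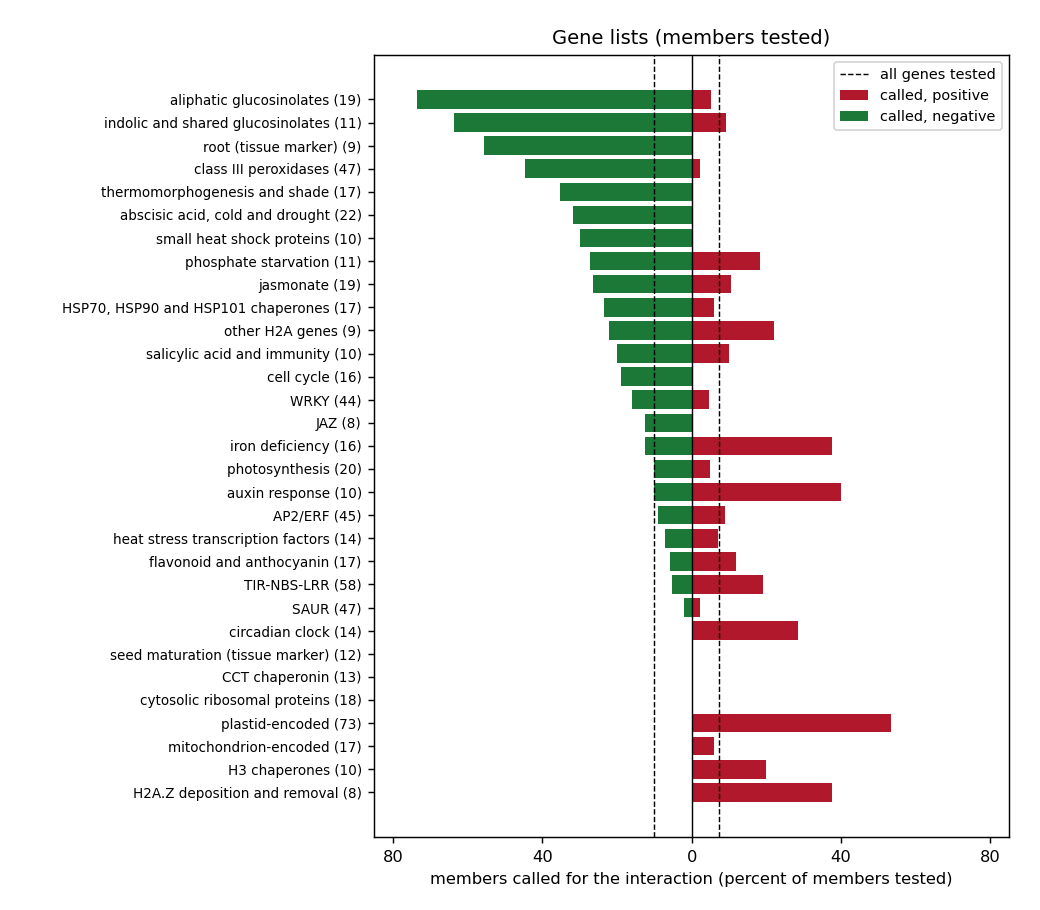
Bars give the percent of tested members of each list called above (right) or below (left) the sum of the single effects, with the number tested in brackets, for lists of at least 8 tested genes. Dashed lines mark the 7.39% and 10.1% of all genes tested; aliphatic glucosinolates reached 73.7% below the sum and plastid-encoded genes 53.4% above it.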

How the data were processed

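RNA-seq of 12 seedling libraries was compared as 4 genotypes. The authors deposited 1 table of TPM values with 1 column per library. Per the submitters' processing notes the tools were DESeq2 1.26.0, HTSeq 0.11.2, HISAT2 2.1.10 and fastp 0.20.1 and the build TAIR10, with no role or order; how TPM were computed is not given there. TPM keeps no total, and each column is a share, so abundant transcripts affect the others.

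From these values, limma 3.58.1 in R 4.3.3 was fitted to log2(TPM + 1) for the 18851 genes whose TPM averaged 1 or more, with 4 group means, 8 residual degrees of freedom and a trend of variance with mean. Two-sided tests were used, with Benjamini-Hochberg adjustment over all genes at 0.05. Fold changes on this scale understate changes of low genes. Where both single losses lower a gene, the log2 sum can fall below any level a library can have. The positive sign of such a departure is then fixed in advance. The fit was tested on simulated data.

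Named genes are the 3 largest departures per shape and sign, with the sign and call kept in all 12 fits that leave out 1 library and a mean TPM of at least 5 in 1 genotype, plus HTR4, HTR5, HTR8, HTA8, HTA9, HTA11, PIF4, HSP70, FLC and up to 4 called members of each list described; YUC8, IAA19, HSP90.3 and further members were chosen after their values were seen. Members and lists were chosen with earlier results of these data known. Names, products, gene order and promoter bases came from RefSeq TAIR10.1, in which 23739 identifiers matched; the table itself holds no coordinates. Alternatives were other pseudocounts, filters, rescalings, array weights, a replicate block and leaving out each library.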

Additional observations from a re-analysis of the deposited data

Results flagged for a closer look

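In these named genes an effect differed between the backgrounds, by the interaction term of limma, and took opposite directions. H2A.Z loss changed QQS by -2.652 without the knockdown and by 2.156 with it, a difference of 4.808, and the knockdown changed QQS by -0.8623 with H2A.Z present and 3.946 without, the same 4.808. For AT4G38280 the H2A.Z effects were -2.85 and 0.5867, a difference of 3.436. For AT1G12010 they were -1.502 and 1.709, a difference of 3.211, and the knockdown effects were -0.937 and 2.274, again differing by 3.211. The H2A.Z effect went from a rise to a fall for AT4G16857 (2.249 and -1.072, difference -3.321), OSM34 (1.63 and -0.656, difference -2.286) and AT1G13650 (0.4904 and -1.609, difference -2.099). The knockdown effect went from a fall to a rise for AT4G16880 (-0.4235 and 5.268, difference 5.692), AT1G13609, a defensin-like gene (-2.931 and 1.444, difference 4.375), AT3G28270 (-0.4794 and 3.646, difference 4.126) and HTA9 (-0.3513 and 0.8651, difference 1.216). It went from a rise to a fall for AT5G46940, annotated as an inhibitor of invertase or pectin methylesterase (1.443 and -1.183, difference -2.626). All values are log2(TPM + 1) differences over 3 libraries a genotype, and the fitted size of genes at 0 TPM depends on the added 1.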

How the results depend on the processing

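Over 24 alternatives the number of genes called for the interaction ranged from 2377 to 4778, and the share of calls above the sum, 42.3%, became 48.0% with TPM rescaled by median ratios, 33.1% without the first and 50.7% without the third double mutant library. With log2(TPM + 5) strong departures fell to 101 above and 110 below the sum, reversal to 20 and less than additive to 265 genes; where TPM had to average 5 or more, strong departures below the sum were 183 and reversal 43. Requiring 2-fold for a move gave 168 emergent, 461 suppression, 12 reversal, 66 synergy and 141 less than additive genes. Emergent genes were 420 with array weights, and 214 to 442 when 1 library was left out, the latter without the first double mutant library. On unlogged TPM, where the sum is taken on another scale, the sign turned for ESM1 (55.89, adjusted p = 5.2e-05), CYP83A1 (10.76, 0.03047) and CORI3 (-18.32, 2.31e-04). The sign also differed, with no call, for LHCB1.2 on unlogged TPM (-178.7, adjusted p = 0.9983) and CORI3 with log2(TPM + 5) (-0.1454, adjusted p = 0.3359). A replicate block gave 2938 calls, of which 2848 were shared with the same sign. No pairing by replicate number was seen: the deviations of 18 same-numbered pairs correlated at -0.17 to 0.0766. With 3 libraries a genotype a weak pairing could be missed. Of the values of 39 named genes under the alternatives, 875 kept direction and call, 5 gained a call, 4 lost one and 2 reversed. Most of these genes were chosen as large departures that kept sign and call in the 12 fits that leave out 1 library. Their values in those fits were fixed by that choice. HTR4 and HSP70 gained a call on unlogged TPM. Low depth of h2a.z replicate 1 limits genes near 1 TPM; without it 3109 genes were called.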

Other observations

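In the auxin response list 4 of 10 tested genes were called above the sum and 1 below; IAA3, a repressor of auxin signalling, had 65.9, 57.2 and 54.8 TPM in Col, against 33.1, 30.9 and 28.8 in the knockdown, 25.1, 24.3 and 26.9 in the h2a.z mutant and 30.8, 27.5 and 30.5 with both losses. Either loss alone lowered it, and the double mutant overlapped the knockdown (interaction 1.13, SE 0.11, limma adjusted p = 1.33e-05). Of 14 clock genes 4 were called above the sum (1 to 6 over the alternatives), all under 2-fold: LUX, LNK2, PRR7 and CCA1. Of 44 WRKY transcription factors, regulators of defence, 7 (15.9%) were below the sum and 2 (4.55%) above. WRKY72 (-1.13) and WRKY40 (-1.03) had the largest departures among them. Of 16 cell cycle genes 3 (18.8%) were below the sum, the replication genes MCM7 (-0.71), MCM5 (-0.59) and PCNA2 (-0.45). Beside these lists, 10.1% of all genes tested were called below the sum and 7.39% above.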
